A study of Bos taurus with 6 samples.

Results

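The genes described here encode proteins that bring fatty acids into the cell, bind them in the cytosol and store them in lipid droplets, with the nuclear receptor that controls many of them. The 10 genes (CD36, SLC27A1, SLC27A4, LPL, FABP3, FABP4, FABP5, PLIN2, PLIN3 and PPARG) are 10 of the 17663 genes in the table and were matched by symbol. They were chosen by their role from a known pathway, with FT against WT results of these libraries known, so their FT and WT values are a description with no test.

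Long-chain fatty acids reach a cell bound to albumin or are released from lipoproteins by a lipase at the cell surface. Membrane proteins help to move them inward, acyl-CoA synthetases trap them, and small binding proteins carry them through the cytosol to membranes, mitochondria, the nucleus or the endoplasmic reticulum. Surplus fatty acids are esterified to triacylglycerol and kept in droplets coated with perilipins, a store that is large in adipocytes and small in most fibroblasts.

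RNA was measured in bovine fetal fibroblasts (bEFs) in primary culture from 3 fat-1 transgenic fetuses (FT) and 3 wild-type fetuses (WT), all aged 50 to 60 days, with 1 library per fetus. The fat-1 gene comes from a nematode and encodes a desaturase that turns n-6 polyunsaturated fatty acids into n-3 ones. The wild-type fetuses were Luxi cattle, whereas the breed of the FT fetuses, the promoter of the transgene and the number of transgenic lines are not given in the sources used here. Breed may therefore differ between the groups together with the transgene, and its part was not tested. The cultures were started from what was left of the body once head, limbs, bones and organs were taken away, so they could hold several cell types.

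Library depth, as the sum of counts, was 63366834, 48167642 and 54204446 in FT_1 to FT_3. It was 69777641, 51310741 and 54271927 in WT_1 to WT_3. The groups therefore overlapped in depth. FPKM, the fragments per kilobase of gene scaled to the library total, is used for levels because it can be compared between genes. It does not include the TMM factors by which edgeR rescales libraries. These were 0.968, 0.945 and 0.934 in FT_1 to FT_3 and 1.056, 1.055 and 1.050 in WT_1 to WT_3. FPKM is therefore lower in FT relative to WT than after that rescaling, and small gaps between the groups can depend on it. Log2 fold changes are FT minus WT from edgeR on the counts and are given with their standard error (SE).

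One library of the FT group stood apart. The median absolute difference in log2 CPM (counts scaled to library size) over genes was 0.391 between FT_1 and FT_2 and 0.400 between FT_1 and FT_3. It was 0.117 between FT_2 and FT_3, and 0.128 to 0.172 between WT libraries. Of the 10 genes, 7 differed by more than 2-fold between FT_1 and the mean of FT_2 and FT_3. Fold changes of the 10 genes are therefore given with and without FT_1, which leaves 2 FT libraries.

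The fibroblast label was checked against 9 markers, and all 9 were found at an FPKM over 1 in at least 1 library. Their summed FPKM was 6776, 16989 and 16716 in FT_1 to FT_3, against 17743, 17210 and 17289 in WT_1 to WT_3. FT_1 was low and the other libraries lay close together. Vimentin (VIM), an intermediate filament of mesenchymal cells, had the highest mean FPKM over the 6 libraries, with 1244, 3850 and 4171 in FT_1 to FT_3 and 7891, 8178 and 7312 in WT_1 to WT_3. Of the 3 collagen genes among the markers, COL1A2 had 1177, 1975 and 1933 in FT_1 to FT_3, against 2279, 2077 and 2434. COL3A1 had 433.01, 1082 and 1006 against 1244, 1106 and 1322. By FPKM both were, like VIM, below all WT libraries in every FT library. Without FT_1, however, their log2 fold changes were only -0.04 (SE 0.08) for COL1A2 and -0.06 (SE 0.08) for COL3A1. For VIM it was -0.79 (SE 0.07). Other markers went the opposite way in some or all FT libraries, so the similar sums hide differences between single genes. The matrix proteoglycan gene DCN had 1803, 4092 and 3769 in FT_1 to FT_3, above VIM in FT_1 and FT_2, and 2299, 2054 and 2227 in WT_1 to WT_3. The growth factor receptor gene PDGFRA had 217.7, 166.4 and 140.6 in FT_1 to FT_3 and 93.5, 87.0 and 99.7 in WT_1 to WT_3. PDGFRA was thus above all WT libraries in every FT library, whereas DCN, LUM, PDGFRB and the collagen gene COL1A1 (914.1, 2611 and 2689 against 2288, 2212 and 2331) were above them in FT_2 and FT_3 and below them in FT_1.

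Markers of other cell types also differed between libraries. The summed FPKM of 5 epithelial markers was 340, 14.8 and 15.0 in FT_1 to FT_3, against 10.2, 7.92 and 14.2 in WT_1 to WT_3. The basal keratin KRT5 had the highest mean over the 6 libraries, with 171.5, 2.57 and 1.63 in FT_1 to FT_3, and was listed at 0 in all 3 WT libraries. In every library but FT_1 the most abundant epithelial marker was the cadherin gene CDH1 (36.3, 7.11 and 8.41 in FT_1 to FT_3 and 10.03, 7.83 and 13.9 in WT_1 to WT_3), while EPCAM was at 0 in all libraries but FT_1 (0.57). FT_1 was the only library with a high epithelial sum. KRT5, the keratin gene KRT14 and the tight junction gene CLDN4 were nevertheless above all WT libraries in every FT library. KRT14 had 128.14, 1.76 and 1.11 in FT_1 to FT_3 and was listed at 0 in WT libraries. CLDN4 had 3.65, 3.39 and 3.82 in FT_1 to FT_3 and 0.20, 0.09 and 0.33 in WT_1 to WT_3.

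The sum of 3 mesothelial markers was 199.7, 45.0 and 46.3 in FT_1 to FT_3, and 2.32, 3.48 and 3.34 in WT_1 to WT_3. Nearly all of it was mesothelin (MSLN), with 198.7, 44.9 and 46.2 in FT_1 to FT_3 and 2.08, 3.18 and 3.06 in WT_1 to WT_3. WT1, another mesothelial marker, was listed at 0 in every FT library and at 0.05 or less in WT libraries. UPK3B had 1.03, 0.10 and 0.09 in FT_1 to FT_3 and 0.20, 0.25 and 0.25 in WT_1 to WT_3. It was thus above the WT libraries in FT_1 and below them in FT_2 and FT_3. LRRN4 and CALB2 were listed as markers but had no values. Of the 3 markers, MSLN alone was therefore high in every FT library, and highest in FT_1.

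Cells that are known for high FABP4 and CD36 were looked for as well, since these genes are abundant in adipocytes, capillary endothelium and macrophages. The sum of 6 macrophage markers was 4.50, 4.12 and 3.55 in FT_1 to FT_3 and 11.2, 9.62 and 10.5 in WT_1 to WT_3. Its most abundant gene was CD14 (3.29, 3.05 and 2.01 against 4.72, 3.78 and 5.09), and CSF1R was at 0.19 or less in every library. The scavenger receptor gene CD163 had 0.18, 0 and 0.03 in FT_1 to FT_3 and 3.14, 2.90 and 2.69 in WT_1 to WT_3. The macrophage sum was thus lower in every FT library, and CD163, like CD36, was close to 0 in FT libraries alone, while CSF1R was near 0 in both groups. CD68 was also below all WT libraries in every FT library (0.77, 1.01 and 1.35 against 3.02, 2.71 and 2.57). AIF1 (0.19, 0 and 0 against 0.13, 0.07 and 0) and MRC1 (0.07, 0 and 0 against 0.01, 0 and 0.04) were near 0 with overlapping groups. PTPRC, C1QA, C1QB and C1QC were listed as markers but had no values, so the lower sum rests on part of the list.

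The sum of 8 endothelial markers was 7.11, 0.86 and 1.04 in FT_1 to FT_3 and 2.97, 1.99 and 2.06 in WT_1 to WT_3. Its most abundant gene was ERG (6.03, 0.39 and 0.51 against 1.41, 0.99 and 0.86), while CDH5 was at 0.10 or less and KDR at 0.03 or less in every library. The sum was highest in FT_1 and lowest in the other FT libraries, following ERG. PECAM1 (0.38, 0.09 and 0.10 in FT_1 to FT_3 against 0.76, 0.46 and 0.59) and VWF (0.27, 0.21 and 0.23 against 0.37, 0.29 and 0.28) were instead below all WT libraries in every FT library.

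The sum of 7 adipocyte markers was 2.13, 7.37 and 6.73 in FT_1 to FT_3 and 4.98, 4.97 and 4.51 in WT_1 to WT_3. Leptin (LEP) had the highest mean over the 6 libraries, at 0.03, 4.91 and 4.45 in FT_1 to FT_3, and at 0.09, 0.07 and 0.02 in WT_1 to WT_3. ADIPOQ, which encodes adiponectin, was listed at 0 in every FT library and at 0.28, 0 and 0.07 in WT_1 to WT_3. The high LEP of FT_2 and FT_3 made up most of their sum, and the defining gene ADIPOQ was at or near 0 in all libraries. In WT libraries the most abundant adipocyte marker was the droplet protein gene CIDEC, with 2.57, 3.20 and 2.27, against 0.08, 0 and 0 in FT_1 to FT_3. CIDEC was thus low in the same libraries as CD36 and FABP4. In FT_1 the most abundant was PLIN1 (1.33), which was between 1.23 and 1.49 in every library.

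The sum of 6 skeletal muscle markers was 5.84, 4.64 and 3.78 in FT_1 to FT_3 and 1.43, 1.42 and 2.10 in WT_1 to WT_3. It rested in FT libraries on desmin (DES; 5.74, 4.01 and 3.17 against 0.07, 0 and 0). Of the other muscle markers, MYF5 was lower in FT libraries, at 0.03, 0.59 and 0.61 against 1.06, 1.31 and 1.93. MYH3 (0.01 or less against 0.04 to 0.12) and TNNT3 (0 against 0.05 to 0.20) were lower as well. CKM and ACTC1 were at 0.04 or less in every library, with overlapping groups. Both erythroid markers in the table, HBA among them, were at 0.04 or less in every library. The part of these cell types in the results that follow was not tested, and in bulk samples fewer cells of a type and less RNA per cell cannot be told apart.

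**Figure D1:**
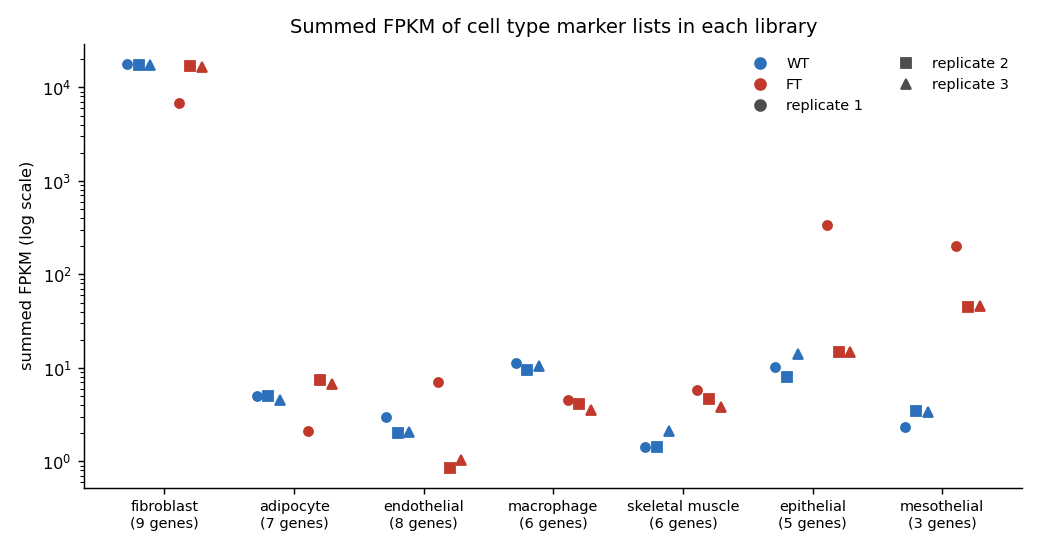
Summed FPKM (log axis) of 7 cell type marker lists in each library, with WT in blue, FT in red and symbols for the replicate number. FT_1 is apart in the epithelial sum (340, against 15.0 or less in the other libraries) and in the fibroblast sum (6776, against 16716 or more).

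Among the uptake genes, CD36 encodes a membrane receptor for long-chain fatty acids and oxidised lipoproteins. It lies on chromosome 4 from 40380301 to 40443336 (ENSBTAG00000017866). CD36 had an FPKM of 0, 0.04 and 0.05 in FT_1 to FT_3, and of 4.11, 2.90 and 1.96 in WT_1 to WT_3. These values came from counts of 0, 8 and 12 in FT_1 to FT_3 and 1239, 644 and 460 in WT_1 to WT_3. All 3 FT libraries were close to 0, all 3 WT libraries were well above them, and the groups did not overlap.

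The count of 0 for CD36 in FT_1 allows up to 0.0473 CPM, which covers counting error only. With FT_1 taken as 0 and not at that limit, the mean of CD36 was 0.129 CPM in FT and 12.9 CPM in WT. The difference was then 100.1-fold, and it would be smaller with FT_1 at the limit. The log2 fold change of CD36 was -6.50 (SE 1.0), and -5.87 (SE 0.42) without FT_1. CD36 was thus close to 0 in FT libraries whether or not FT_1 was counted, although its level in WT libraries was already low.

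The fatty acid transport proteins SLC27A1 and SLC27A4 take up fatty acids together with their activation to acyl-CoA. SLC27A1 (chromosome 7, 5605375 to 5646428) had an FPKM of 3.70, 7.23 and 7.61 in FT_1 to FT_3, against 5.97, 5.90 and 6.45 in WT_1 to WT_3. FT_1 was below all WT libraries and the other FT libraries were above them, so that the groups overlapped. Its log2 fold change was 0.18 (SE 0.28) and turned to -0.04 on log2(FPKM + 1) with limma, where the median of all genes was -0.12 (0.03 in edgeR). Without FT_1 it was 0.45 (SE 0.09).

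SLC27A4 (chromosome 11, 98945593 to 98959912) lay at a lower level. Its FPKM was 0.90, 1.88 and 1.91 in FT_1 to FT_3, and 1.10, 1.16 and 1.01 in WT_1 to WT_3. As for SLC27A1, FT_1 was the lowest library, FT_2 and FT_3 were the highest, and the groups overlapped. The log2 fold change of SLC27A4 was 0.68 (SE 0.33), and 0.96 (SE 0.17) without FT_1. The ratio of SLC27A1 to SLC27A4 in FPKM was 4.11, 3.85 and 3.98 in FT_1 to FT_3, and 5.43, 5.09 and 6.39 in WT_1 to WT_3. Although the level of both genes differed between FT_1 and the other FT libraries, their ratio was much the same in all 3 and lower than in any WT library.

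Lipoprotein lipase (LPL) is secreted and splits the triacylglycerol of lipoproteins into fatty acids that cells can take up. The gene (chromosome 8, 66989665 to 67016690) had an FPKM of 1.47, 8.04 and 7.81 in FT_1 to FT_3. In WT_1 to WT_3 it was 8.42, 5.99 and 8.33. FT_2 and FT_3 lay within the range of WT libraries and only FT_1 lay below it. The log2 fold change of LPL was -0.23 (SE 0.61) and turned to 0.23 (SE 0.14) without FT_1, so its direction rested on that library.

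**Figure D2:**
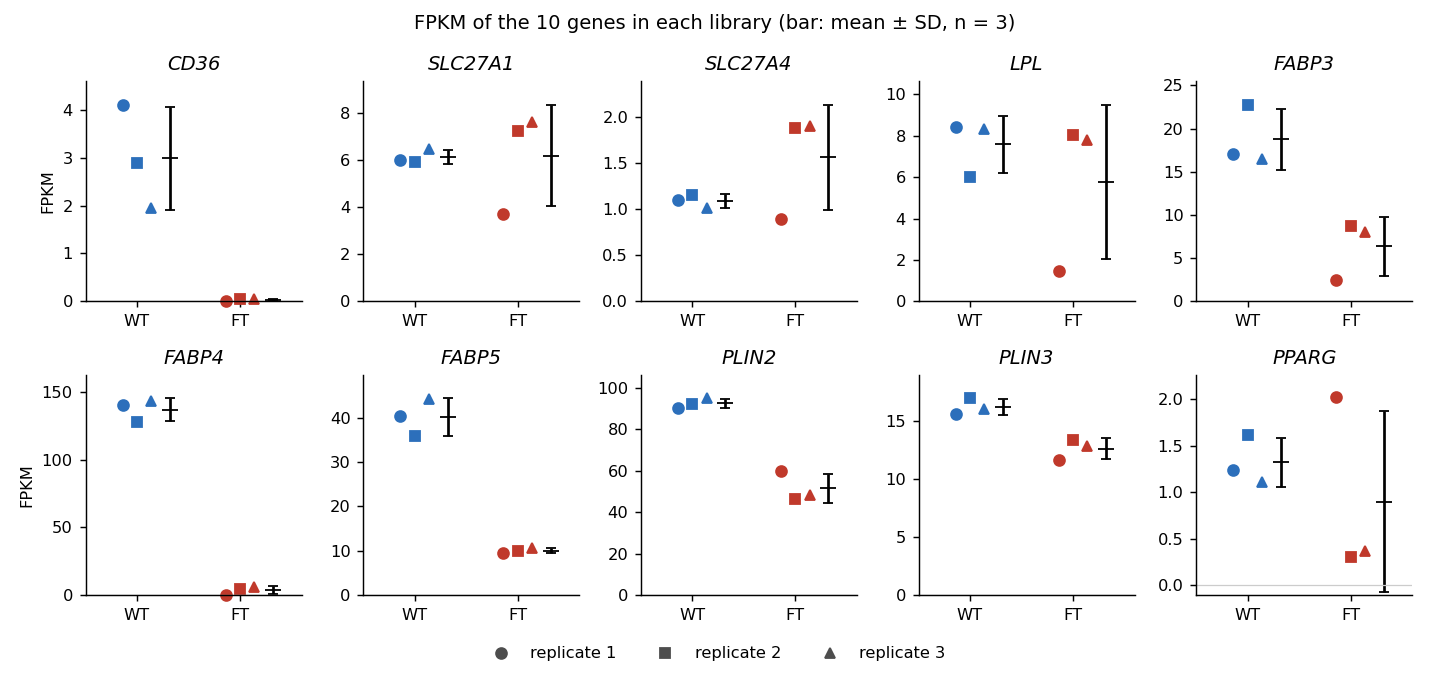
FPKM of the 10 genes in each library, 1 panel per gene with its own axis, with black bars for the mean and SD of 3 libraries (for PPARG in FT the bar reaches below 0). CD36, the 3 FABP genes, PLIN2 and PLIN3 show no overlap between FT (red) and WT (blue), and FT_1 (red circle) is apart for LPL (1.47) and PPARG (2.02).

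The binding proteins of the FABP family are small cytosolic carriers, each named after the tissue in which it is abundant. FABP4, the adipocyte form, was the most abundant of the 10 genes in WT libraries. Its FPKM was 0.08, 4.67 and 5.95 in FT_1 to FT_3, against 140.3, 127.9 and 143.4 in WT_1 to WT_3. The counts behind these values were 4, 175 and 251 in FT_1 to FT_3 and 7559, 5071 and 6005 in WT_1 to WT_3. Every FT library was far below every WT library, and FT_1 was far below the other FT libraries.

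The mean FPKM of FABP4 was 3.57 ± 3.09 (SD, n = 3) in FT and 137.2 ± 8.23 (SD, n = 3) in WT. Its log2 fold change was -5.10 (SE 1.17). Without FT_1 it was -4.51 and the SE was 0.12, so that the large error with all libraries came with the low value of FT_1. FABP4 (ENSBTAG00000037526) is on chromosome 14 from 44676542 to 44681059.

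FABP5, the epidermal form, was lower in FT libraries by a smaller factor. Its FPKM was 9.45, 9.90 and 10.6 in FT_1 to FT_3, and 40.4, 35.8 and 44.2 in WT_1 to WT_3. The FT libraries were alike, FT_1 included, and lay well below all WT libraries. The mean FPKM was 9.99 ± 0.590 (SD, n = 3) in FT and 40.1 ± 4.19 (SD, n = 3) in WT, a 4.02-fold difference. The log2 fold change of FABP5 was -1.85 (SE 0.11), and -1.80 (SE 0.11) without FT_1. Among FABP3, FABP4 and FABP5, FABP5 had the smallest difference between FT_1 and the other FT libraries.

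FABP3, the heart form, had an FPKM of 2.47, 8.67 and 8.03 in FT_1 to FT_3. In WT_1 to WT_3 it was 17.0, 22.8 and 16.4. All FT libraries were below all WT libraries, with FT_1 the lowest. The log2 fold change of FABP3 was -1.39 (SE 0.47), and -1.0 (SE 0.15) without FT_1. The gene is on chromosome 2 from 122285620 to 122294666.

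Taken as a family, these 3 genes summed to an FPKM of 12.0, 23.2 and 24.6 in FT_1 to FT_3, and to 197.8, 186.4 and 204.01 in WT_1 to WT_3. The makeup of that sum differed as well. FABP4 gave 0.667%, 20.1% and 24.2% of it in FT_1 to FT_3, against 71.0%, 68.6% and 70.3% in WT_1 to WT_3. FABP4 was thus the main binding protein transcript in every WT library and in no FT library. FABP5 held the largest share in all FT libraries, with 78.8%, 42.6% and 43.2% in FT_1 to FT_3, against 20.4%, 19.2% and 21.6% in WT_1 to WT_3.

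**Figure D3:**
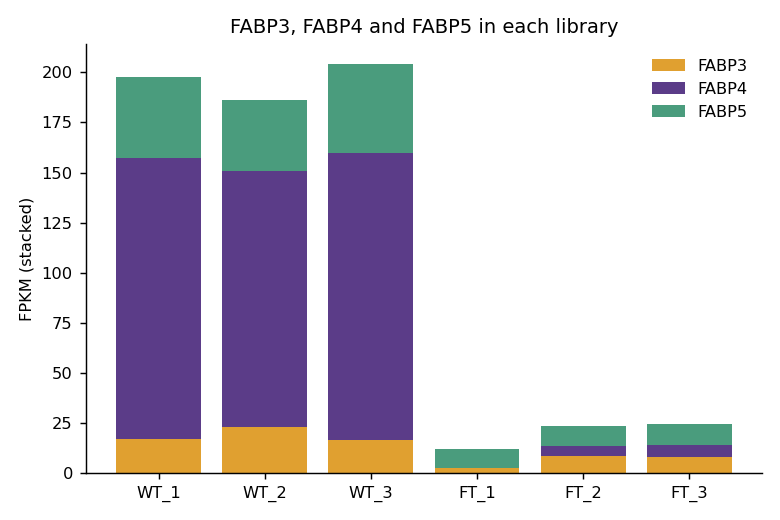
Stacked FPKM of FABP3, FABP4 and FABP5 in each library. The sum is 186.4 or more in WT libraries, mostly FABP4, and 24.6 or less in FT libraries.

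FABP5 and FABP4 lie on the same chromosome, and the table held 5 other genes within 500000 bases of FABP4. FABP5 spans 44488895 to 44494877 on the plus strand. Between it and FABP4 lies PMP2, which encodes the FABP of peripheral myelin and was at an FPKM of 0.02 in WT_1 and listed at 0 in the other libraries. The next of these genes on the far side of FABP4 is CCN3, a secreted matricellular protein gene, from 44848527 to 44856903. CCN3 had an FPKM of 419.3, 487.9 and 461.7 in FT_1 to FT_3 and 79.1, 77.5 and 96.1 in WT_1 to WT_3. FABP4 and CCN3 therefore differed between the groups in opposite directions. Apart from FABP5, FABP4 and CCN3, the genes of that window had overlapping groups. PAG1, an adaptor protein gene beyond FABP5, had 0.55, 0.86 and 1.04 in FT_1 to FT_3 and 0.68, 0.57 and 0.78 in WT_1 to WT_3. MAL2 and COLEC10, beyond CCN3, were at 0.05 or less in every library but for MAL2 in FT_1 (2.77).

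Perilipins coat the lipid droplet and limit access of lipases to its core. PLIN2, the form found on droplets in most cell types, was the most abundant of the 10 genes in FT libraries. Its FPKM was 59.7, 46.5 and 48.6 in FT_1 to FT_3, against 90.5, 92.3 and 94.95 in WT_1 to WT_3. All FT libraries were below all WT libraries, and here FT_1 was the highest of the FT libraries. The mean FPKM was 51.6 ± 7.09 (SD, n = 3) in FT and 92.6 ± 2.25 (SD, n = 3) in WT. The log2 fold change of PLIN2 was -0.69 (SE 0.11), and -0.79 (SE 0.06) without FT_1. PLIN2 is on chromosome 8 from 25117062 to 25131177, on the same chromosome as LPL but far from it.

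PLIN3 is a perilipin that is soluble in the cytosol and moves onto forming droplets. It had an FPKM of 11.6, 13.4 and 12.9 in FT_1 to FT_3, and of 15.6, 16.95 and 16.1 in WT_1 to WT_3. The groups did not overlap, but the gap between them was small. Its log2 fold change was -0.20 (SE 0.09), -0.14 (SE 0.08) without FT_1 and -0.34 on log2(FPKM + 1). PLIN3 is on chromosome 7 from 19291174 to 19311897. The ratio of PLIN2 to PLIN3 in FPKM was 5.14, 3.48 and 3.78 in FT_1 to FT_3 and 5.80, 5.44 and 5.90 in WT_1 to WT_3. PLIN2 was thus lower relative to PLIN3 in every FT library, with FT_1 nearest to the WT libraries.

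PPARG encodes a nuclear receptor that fatty acids can bind and that drives the formation of adipocytes, with FABP4, CD36, LPL and PLIN2 among its known target genes. It had an FPKM of 2.02, 0.30 and 0.37 in FT_1 to FT_3, against 1.24, 1.61 and 1.11 in WT_1 to WT_3. FT_1 was above all WT libraries and the other FT libraries were below them, so that the groups overlapped. The log2 fold change of PPARG was -0.41 (SE 0.74), and -1.78 (SE 0.23) without FT_1. FT_1, the library with the highest PPARG, had the lowest FABP4, CD36 and LPL of all libraries but the highest PLIN2 of the FT libraries. The gene is on chromosome 22 from 56709248 to 56835386.

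**Figure D4:**
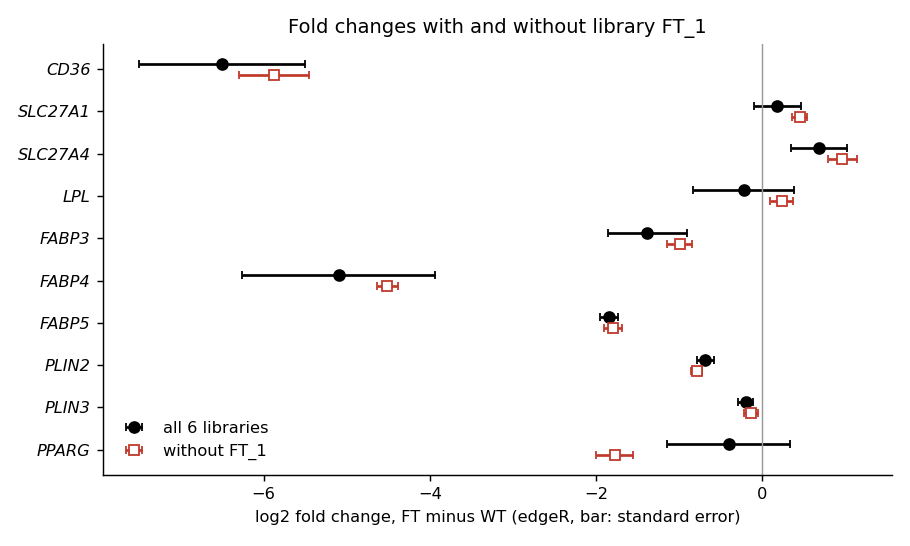
Log2 fold change (FT minus WT, edgeR) of the 10 genes with all 6 libraries (black) and without FT_1 (open red), with bars for the standard error. CD36 (-6.50) and FABP4 (-5.10) stand far to the left in both, whereas PPARG moves from -0.41 to -1.78 and LPL from -0.23 to 0.23; SLC27A1 (0.18 here) turns to -0.04 on log2(FPKM + 1).

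Of the 10 genes, 6 were lower in FT with no overlap, where the share over all 13482 tested genes was 36.9%. None of the 10 was higher with no overlap (share over all genes 21.8%), and 4 overlapped. Since the contrast was known when the genes were chosen, nothing is read from these counts. All 10 passed the filter on low counts, CD36 and FABP4 by virtue of their WT libraries. All but PLIN3 carried the KEGG annotation of the PPAR signaling pathway in the table.

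The levels also ranked differently in the groups. By mean FPKM in WT, FABP4 (137.2) was followed by PLIN2 (92.6), FABP5 (40.1), FABP3 (18.8) and PLIN3 (16.2), then LPL (7.58), SLC27A1 (6.11), CD36 (2.99), PPARG (1.32) and SLC27A4 (1.09). In that order the ranges of FABP3 and PLIN3, of LPL and SLC27A1, and of PPARG and SLC27A4 overlapped over the WT libraries. By mean FPKM in FT, PLIN2 (51.6) was followed by PLIN3 (12.6), FABP5 (9.99), FABP3 (6.39), SLC27A1 (6.18), LPL (5.77), FABP4 (3.57), SLC27A4 (1.56), PPARG (0.897) and CD36 (0.0300). From FABP3 to PPARG each gene overlapped with the next over the FT libraries. FABP4 thus went from the first to the seventh place.

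The pattern of each gene over the 6 libraries was compared with that of all tested genes by the root mean square (RMS) difference of centred log2 CPM. CD34 was the nearest to both CD36 (RMS 0.621) and FABP4 (RMS 0.764), and CD36 itself was the third nearest to FABP4 (RMS 0.956). The nearest to the others were GCLC for FABP3 (0.116), CCDC184 for FABP5 (0.113), CACNA1A for LPL (0.108), SIAH1 for PLIN2 (0.037), FAM214A for PLIN3 (0.020), FAM214B for SLC27A1 (0.026), GAS2L1 for SLC27A4 (0.059) and PTER for PPARG (0.163). The RMS of the nearest gene was thus larger for CD36 and FABP4 than for the others. CD36 had counts of 0, 8 and 12 in FT_1 to FT_3, and FABP4 had a count of 4 in FT_1. The part of such low counts in the larger RMS was not tested.

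Other genes of the pathway were taken from 6 lists by known role, and 76 of the 91 listed genes had a row in the table. Genes were called with edgeR's quasi-likelihood test at a Benjamini-Hochberg adjusted p under 0.05 over all tested genes. Of the 65 list genes tested, 17 rose in FT libraries, where 20.1% of all 13482 tested genes did, and 10 fell, where 18.9% of all did. Without FT_1, 28 rose (30.6% of all 13765 genes then tested) and 20 fell (31.5%). On log2(FPKM + 1) with limma, 34.0% of all called genes were higher in FT, against 51.6% in edgeR, and 11 list genes were called higher and 13 lower. The lists therefore held genes in both directions, and their counts varied with the libraries used. Every list gene named in the following as risen or fallen was also called in the same direction without FT_1.

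**Figure D5:**
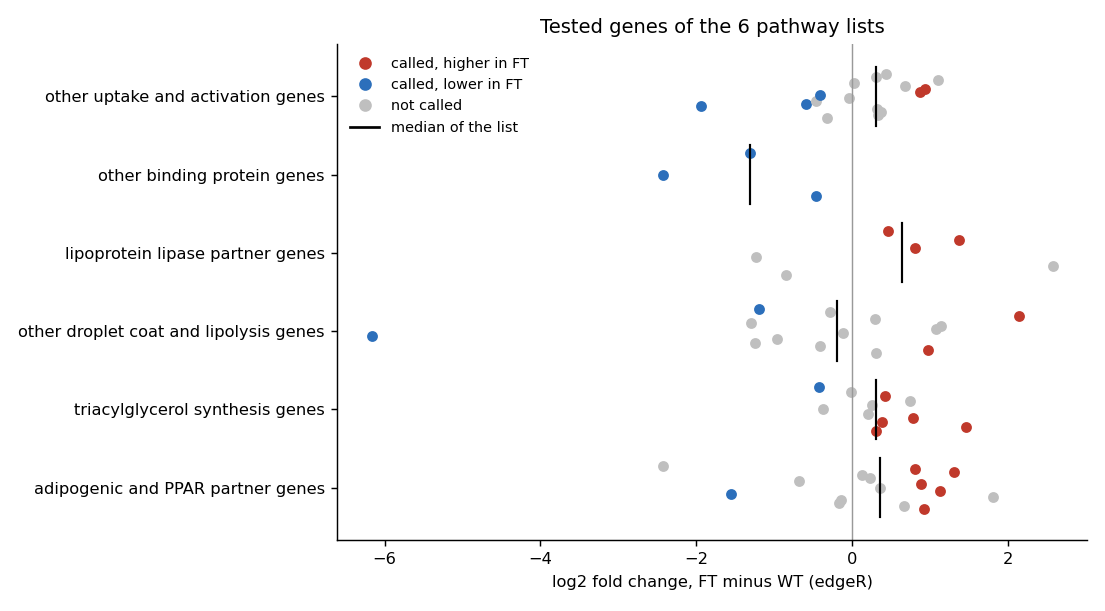
Log2 fold change (FT minus WT, edgeR) of the 65 tested genes of 6 pathway lists, with called genes in red (higher in FT) and blue (lower in FT), other genes in grey and a black line for the median of each list. All 3 tested genes of the binding list are lower, of which FABP7 entered the test through its WT libraries. The other lists hold called genes on both sides or, for the lipase partners, on the right.

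Of 16 tested genes of uptake and activation, 2 rose and 3 fell, with a median log2 fold change of 0.32 (0.03 over all genes). Without FT_1, 5 were called in each direction and the median was 0.05 (-0.02 over all genes). CAV1, which encodes the main coat protein of caveolae, had the highest mean FPKM of them over the 6 libraries, with 188.2, 253.9 and 267.4 in FT_1 to FT_3 and 1004, 1042 and 988.3 in WT_1 to WT_3. Every FT library was far below every WT library. CAV1 fell by 1.93 on the log2 scale (SE 0.17, adjusted p = 0.00105 with Benjamini-Hochberg adjustment in edgeR's quasi-likelihood test).

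By the same edgeR test with Benjamini-Hochberg adjustment, its partner CAV2 fell by 0.59 (adjusted p = 0.0142). The lipoprotein receptor gene LRP1 rose by 0.87 (adjusted p = 0.0201 in the edgeR test with Benjamini-Hochberg adjustment) and the lysophospholipid transporter gene MFSD2A by 0.94 (adjusted p = 0.0361). Each of these 3 genes had no overlap between the groups. Their calls were lost when some single libraries were left out, with a Benjamini-Hochberg adjusted p in edgeR of 0.0528 for CAV2 without WT_1 and 0.0589 without WT_2, and of 0.0810 for LRP1 without WT_1 and 0.0802 without WT_2. For MFSD2A the edgeR value with Benjamini-Hochberg adjustment was 0.0539 without FT_3, 0.104 without WT_1, 0.112 without WT_2 and 0.117 without WT_3. The call of MFSD2A was also lost with limma on log2(FPKM + 1), at 0.49 (Benjamini-Hochberg adjusted p = 0.0882).

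All 3 tested genes of the other binding proteins were called lower, with a median log2 fold change of -1.3, and of -1.21 without FT_1. FABP7, which is among them, passed the filter on low counts by virtue of its WT libraries, so nothing is read from its call. With no filter, 2 genes of the list were called lower and FABP7 was not. The acyl-CoA binding protein gene DBI was the most abundant, with an FPKM of 73.1, 83.9 and 69.2 in FT_1 to FT_3 and 108.1, 126.3 and 112.4 in WT_1 to WT_3. It fell by 0.46 on the log2 scale (adjusted p = 0.0194, edgeR with Benjamini-Hochberg adjustment). SCP2, which encodes a sterol and fatty acid carrier, had 29.9, 37.7 and 34.9 against 99.1, 90.2 and 93.6. It fell by 1.3 (adjusted p = 0.00108, edgeR with Benjamini-Hochberg adjustment) and kept its call whichever library was left out.

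The brain form FABP7 was low, with an FPKM of 0.07, 0.70 and 0.38 in FT_1 to FT_3 and 2.69, 2.30 and 2.10 in WT_1 to WT_3. Its log2 fold change was -2.42 (SE 0.75, adjusted p = 0.0464, edgeR with Benjamini-Hochberg adjustment). With counts of 4, 29 and 18 in FT_1 to FT_3 and 157, 99 and 95 in WT_1 to WT_3, FABP7 passed the filter on low counts by virtue of its WT libraries. None of the 3 genes had overlapping groups. The calls of FABP7 and DBI were lost without single libraries. The adjusted p of FABP7 (edgeR, Benjamini-Hochberg) was 0.114 without FT_3, 0.133 without WT_1, 0.12 without WT_2 and 0.108 without WT_3, and it was 0.0624 with no filter on low counts. That of DBI was 0.0650 without FT_3, 0.0696 without WT_2 and 0.0576 without WT_3.

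Among 6 tested partners of LPL, 3 rose and 3 were not called, with a median log2 fold change of 0.64. Without FT_1, 4 were called higher and 2 lower, with a median of 0.63. SDC1, a heparan sulfate proteoglycan gene of the cell surface, had an FPKM of 83.0, 40.5 and 39.7 in FT_1 to FT_3 and 23.3, 23.5 and 23.1 in WT_1 to WT_3. It was high in all FT libraries and highest in FT_1. SDC1 rose by 1.38 (SE 0.30, adjusted p = 0.0142, edgeR with Benjamini-Hochberg adjustment), and by 0.96 without FT_1.

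The lipase maturation factor gene LMF1 rose by 0.81 (adjusted p = 0.00951, edgeR with Benjamini-Hochberg adjustment), and SEL1L, which acts in the folding of LPL and had the highest mean FPKM of the partners over the 6 libraries, by 0.47 (adjusted p = 0.0317). SEL1L had an FPKM of 67.5, 50.7 and 53.3 in FT_1 to FT_3 and 47.9, 42.4 and 48.0 in WT_1 to WT_3. These 3 partners were higher in FT, while LPL itself overlapped between the groups. The adjusted p of SDC1 (edgeR, Benjamini-Hochberg) was 0.0612 without WT_1, 0.0619 without WT_2 and 0.0589 without WT_3. That of SEL1L was 0.0622 without FT_3, 0.0941 without WT_1, 0.117 without WT_2 and 0.0820 without WT_3, and SEL1L was not called with limma on log2(FPKM + 1) either (0.30, adjusted p = 0.107).

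The genes called lower without FT_1 were LIPG and ANGPTL4, which are named after their values were seen. The endothelial lipase gene LIPG had an FPKM of 14.0, 2.27 and 2.50 in FT_1 to FT_3 and 16.3, 17.97 and 14.3 in WT_1 to WT_3. FT_2 and FT_3 were far below the WT libraries, and FT_1 was just below them. For LIPG the log2 fold change was -1.22 (adjusted p = 0.225, edgeR with Benjamini-Hochberg adjustment), and -2.59 without FT_1 (adjusted p = 1.55e-07). ANGPTL4, which encodes an inhibitor of LPL and is a known PPAR target, had 19.8, 4.37 and 4.60 in FT_1 to FT_3 and 20.9, 17.3 and 18.9 in WT_1 to WT_3. FT_1 lay among the WT libraries and the other FT libraries lay far below them. For ANGPTL4 the log2 fold change was -0.84 (adjusted p = 0.310, edgeR with Benjamini-Hochberg adjustment), and -1.91 without FT_1 (adjusted p = 6.37e-07).

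Of 14 tested genes of the droplet coat and of lipolysis, 2 rose and 2 fell, with a median log2 fold change of -0.19. Without FT_1, 5 were called higher and 4 lower and the median turned to 0.02, so its sign rested on that library. PNPLA2, which encodes the lipase that starts the breakdown of stored triacylglycerol, had an FPKM of 18.1, 18.6 and 20.1 in FT_1 to FT_3 and 4.39, 4.52 and 5.36 in WT_1 to WT_3. All FT libraries were alike and far above the WT libraries. PNPLA2 rose by 2.15 (SE 0.12, adjusted p = 0.000523, edgeR with Benjamini-Hochberg adjustment), and by 2.19 without FT_1. AUP1, a droplet protein gene, rose by 0.97 (adjusted p = 0.000715, edgeR with Benjamini-Hochberg adjustment).

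CIDEC, which promotes the fusion of droplets and is also among the adipocyte markers, had counts of 8, 0 and 0 in FT_1 to FT_3 and 251, 230 and 173 in WT_1 to WT_3. It was thus close to 0 in all FT libraries, like CD36. CIDEC fell by 6.17 (SE 1.16, adjusted p = 0.00903, edgeR with Benjamini-Hochberg adjustment), a size that rests on the 8 counts of FT_1. It passed the filter on low counts through its WT libraries alone. Without FT_1, and with 3 counts as the limit in each of the other FT libraries, it was at least 63.9-fold lower in FT. On log2(FPKM + 1) with limma its log2 fold change was -1.83. The droplet assembly gene LDAF1, listed under its older symbol TMEM159, fell by 1.19 (adjusted p = 0.00492, edgeR with Benjamini-Hochberg adjustment). PNPLA2, AUP1 and LDAF1 kept their calls whichever library was left out. CIDEC did so too, but it entered the test through its WT libraries alone, so nothing is read from its calls. RAB18, a small GTPase gene and the most abundant of the list, had an FPKM of 72.2, 91.3 and 90.4 in FT_1 to FT_3 and 119.6, 117.5 and 106.7 in WT_1 to WT_3. It was below every WT library in all FT libraries, but its log2 fold change of -0.28 did not pass the test (adjusted p = 0.129, edgeR with Benjamini-Hochberg adjustment), while it did with limma on log2(FPKM + 1) (-0.44, adjusted p = 0.0249).

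Of 11 tested genes of triacylglycerol synthesis, 5 rose and 1 fell, with a median log2 fold change of 0.31. Without FT_1, 6 were called higher and 2 lower, with a median of 0.29. AGPAT2, an acyltransferase gene of phosphatidic acid synthesis with the highest mean FPKM of the list over the 6 libraries, had an FPKM of 21.3, 42.5 and 45.6 in FT_1 to FT_3 and 14.3, 14.95 and 15.0 in WT_1 to WT_3. FT_1 lay between the other FT libraries and the WT libraries. In WT libraries AGPAT2 was below SOAT1, which had 32.6, 30.7 and 28.4 there. AGPAT2 rose by 1.47 (SE 0.30, adjusted p = 0.0117, edgeR with Benjamini-Hochberg adjustment), and by 1.75 without FT_1.

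DGAT1, which encodes an enzyme of the last step, rose by 0.78 (adjusted p = 0.0102, edgeR with Benjamini-Hochberg adjustment), LPIN2 by 0.42 (adjusted p = 0.0153) and AGPAT3 by 0.38 (adjusted p = 0.0155). SOAT1, which esterifies cholesterol, fell by 0.43 (adjusted p = 0.0388, edgeR with Benjamini-Hochberg adjustment). Most of these changes were small. With limma on log2(FPKM + 1) LPIN2 and AGPAT3 were not called (0.24 with an adjusted p of 0.0833 and 0.21 with an adjusted p of 0.0897), and of the 5 risen genes of the list only AGPAT2 and DGAT1 were. The adjusted p (edgeR, Benjamini-Hochberg) of AGPAT2 was 0.0552 without WT_1 and 0.0540 without WT_2, and that of LPIN2 was 0.0737 and 0.0634. That of AGPAT3 was 0.0727 without WT_1, 0.0512 without WT_2 and 0.0595 without WT_3. That of SOAT1 was 0.0951 without FT_2, 0.133 without WT_1, 0.110 without WT_2 and 0.0724 without WT_3.

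Of 15 tested genes of adipogenic and PPAR partners, 5 rose and 1 fell, with a median log2 fold change of 0.36. Without FT_1, 8 were called higher and 4 lower, with a median of 0.40. SREBF1, a master regulator gene of lipid synthesis, had an FPKM of 9.59, 23.4 and 24.1 in FT_1 to FT_3 and 8.81, 7.97 and 9.06 in WT_1 to WT_3. FT_1 was just above the WT libraries and the other FT libraries were far above them. SREBF1 rose by 1.31 (SE 0.36, adjusted p = 0.0317, edgeR with Benjamini-Hochberg adjustment), and by 1.63 without FT_1. With limma on log2(FPKM + 1) it was not called (0.96, Benjamini-Hochberg adjusted p = 0.0638).

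The early adipogenic factor genes KLF5 and CEBPB rose by 1.13 (adjusted p = 0.0164, edgeR with Benjamini-Hochberg adjustment) and 0.92 (adjusted p = 0.0110). PPARD, the broadly expressed relative of PPARG, rose by 0.89 (adjusted p = 0.00225, edgeR with Benjamini-Hochberg adjustment). KLF4, with an FPKM of 16.95, 19.5 and 22.6 in FT_1 to FT_3 and 64.2, 65.6 and 63.1 in WT_1 to WT_3, fell by 1.55 (adjusted p = 0.000952, edgeR with Benjamini-Hochberg adjustment). PPARD and KLF4 kept their calls whichever library was left out.

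CEBPD, the partner with the highest mean FPKM over the 6 libraries, had 164.5, 45.3 and 30.3 in FT_1 to FT_3 and 57.1, 49.6 and 60.1 in WT_1 to WT_3. As for PPARG, FT_1 was above all WT libraries and the other FT libraries were below them. Its log2 fold change was 0.67 (adjusted p = 0.422, edgeR with Benjamini-Hochberg adjustment) and -0.39 without FT_1 (adjusted p = 0.0422). The adjusted p (edgeR, Benjamini-Hochberg) of SREBF1 was 0.0886 without FT_2, 0.0871 without FT_3, 0.103 without WT_1, 0.114 without WT_2 and 0.0947 without WT_3. That of KLF5 was 0.0619 without WT_1, 0.0712 without WT_2 and 0.0629 without WT_3, and that of CEBPB was 0.0526 without WT_1 and 0.0513 without WT_2.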

How the data were processed

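Poly(A) RNA of 3 FT and 3 WT cultures was sequenced as read pairs. The authors mapped reads to a UCSC genome with HISAT and estimated expression with StringTie and edgeR, and the submitters' processing notes name HISAT2 2.0, StringTie 1.3.0 and Bowtie 0.12.2. These notes name only a mouse build, so the build of the bovine coordinates, which are given as in the authors' table, is not given in the sources used here. The deposited counts are whole reads per gene, and the FPKM values the authors deposited scale them by gene length and library total. The treatment of reads that match several gene copies is not given in the sources used here.

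The counts were fitted with edgeR 4.0.16 in R 4.3.3 (filterByExpr, TMM factors, quasi-likelihood test), with Benjamini-Hochberg adjusted p over 13482 genes. The SE is the absolute log2 fold change divided by the square root of F. Where a limit is given for a count of 0, it is 3 counts, whereas other means took such a count as 0. Alternatives used DESeq2 1.42.0 and limma 3.58.1 on log2(FPKM + 1), the latter with a minimum mean FPKM of 0.5. The scripts were tested on simulated data.

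The 10 genes and the lists were chosen with earlier results of these data known. Of each pathway list, up to 4 called genes with the largest rise, up to 4 with the largest fall and the most abundant gene are named, with the most abundant gene of each marker list, and other markers, LIPG and ANGPTL4 were named after their values were seen. The window around FABP4 was set after the data were seen. A called gene of the uptake list that this rule would name is counted but not reported here. List symbols were matched to the table directly or through RefSeq synonyms. All 6 libraries were counted separately, as coming from different fetuses. A pair of libraries differed by a mean chi-square per gene of at least 11.3 (FT_2 and FT_3). This is beyond counting error, but it cannot tell different fetuses from separate cultures of the same fetus.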

Additional observations from a re-analysis of the deposited data

How the results depend on the processing

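The 3 FABP genes, CD36, PLIN2 and PLIN3 were lower in FT libraries and SLC27A4 higher under every alternative run, whereas LPL turned without FT_1 and SLC27A1 turned with limma and without FT_3. With limma on log2(FPKM + 1) the log2 fold change was -1.92 for CD36, -0.84 for PLIN2 and -0.34 for PLIN3, with or without the filter, and on log2(FPKM + 0.1) it was -4.53, -0.85 and -0.36, and -1.99 for FABP5. The pseudocount and the lack of rescaling enter these values. Leaving out 1 library gave PPARG -1.78 to -0.0023. CEBPD turned to -0.39 without FT_1 and ranged up to 1.05 without 1 library. The count of 6 genes lower with no overlap was 6 again with FPKM divided by the TMM factor, an alternative chosen after seeing the data, where 48.5% of the genes with no overlap were higher in FT, against 37.2% as deposited.

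Over all genes, 2714 were called higher and 2547 lower. With limma and no filter, 1744 were called higher and 3622 lower. By the rule of the study (unadjusted p under 0.05 with more than 1 in log2 fold change) 1378 were higher and 1208 lower, and with an adjusted p and that fold 1131 and 1019. Leaving out 1 library gave 1516 to 4215 higher and 1531 to 4337 lower. Of the list genes, 17 were called higher and 10 lower. The counts were 11 higher and 13 lower with limma at both pseudocounts, and 12 and 14 with limma and no filter. The higher count was 8 by the rule of the study and 5 with an adjusted p and fold, where 6 were lower. Leaving out 1 library gave 6 to 28 higher and 5 to 20 lower, highest without FT_1 and lowest without a WT library. The cause was not tested.

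With the replicate number as a replicate block, 11 list genes were higher and 7 lower, and 1838 and 1741 of all genes. Libraries of the same number were different fetuses, and the correlation of their deviations from the group mean was -0.0010, -0.020 and 0.018, so the numbers do not pair the samples. The counts of 0 to 12 for CD36 in FT limit the precision of its fold change.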
